A study of Rattus norvegicus with 4 samples.

Results

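Glycolysis turns glucose into pyruvate and lactate in the cytosol. Slc2a1 carries glucose into the cell, hexokinases trap it as glucose 6-phosphate, phosphofructokinase commits it to the pathway, and aldolase, triosephosphate isomerase, glyceraldehyde 3-phosphate dehydrogenase (Gapdh), phosphoglycerate kinase and enolase carry it on to pyruvate, which lactate dehydrogenase reduces to lactate. Chondrocytes of adult cartilage live without blood vessels at low oxygen and are known to draw much of their ATP from this pathway. Iodoacetate alkylates the catalytic cysteine of the Gapdh protein, and for this reason the injected compound kills chondrocytes and is used to model osteoarthritis. The measurements here are of transcripts, so they do not report on that inhibition of the enzyme.

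The genes described are 10 of the 24005 gene symbols in the deposited count table, chosen by name: Slc2a1, Hk1, Hk2, Pfkp, Aldoa, Tpi1, Gapdh, Pgk1, Eno1 and Ldha. All 10 were found, and all 10 passed the filter on low counts that left 15282 genes to test. The RNA was from cartilage of outbred Sprague Dawley rats, all male, with weights of 140 to 230 g and ages of 8 to 12 weeks. The osteoarthritis group has 2 libraries, labelled with osteoarthritis as the disease state and with Xiaogu San (XGS), a preparation of Chinese medicine, as the treatment, and the series' title and design text give monosodium iodoacetate as the inducer. The control group has 2 libraries, labelled healthy, with control as the treatment. No library is labelled as osteoarthritis without XGS, so the disease and the preparation cannot be told apart, and neither the dose of iodoacetate nor the time after injection is given in the sources used here. The labels do not say that the libraries came from separate animals, so p-values reflect only how these samples vary, and that variation may be technical. The design text names mice as the normal animals, whereas every library is labelled rat.

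Depth was 24492412 and 25994449 counts in the osteoarthritis libraries and 28156020 and 28270779 in the control libraries. Marker genes of the tissues differed as well. The summed CPM (counts scaled to library size with edgeR's TMM factors) of 10 chondrocyte markers was 4144 and 10392 in osteoarthritis and 24279 and 35336 in control. Of the 10, 5 lay below both controls and 0 above, beside 26.5% and 30.0% of all tested genes. Acan, the core protein of cartilage proteoglycan, Sox9 and Col11a1 were among the other 5, with fitted log2 fold changes of 1.36, 1.58 and 1.77 and levels above both controls in osteoarthritis replicate 2. Col2a1, the main collagen of cartilage, was at 3431 and 385 CPM in osteoarthritis and at 13919 and 26813 CPM in control. The summed CPM of 8 erythroid markers was 437 and 1132 in osteoarthritis and 36758 and 31574 in control. All 8 lay below both controls, beside 26.5% of all tested genes. The 8 adipocyte markers summed to 8691 CPM (osteoarthritis replicate 1) and 116 CPM (replicate 2), against 1611 and 655 CPM in control, and the defining genes Adipoq and Plin1 were near 0 in osteoarthritis replicate 2 (0.432 and 0.0864 CPM). The 11 skeletal muscle markers summed to 152 and 408 in osteoarthritis and 2735 and 142 in control replicates 1 and 2. The 9 tendon and fibroblast markers summed to 33343 and 146633 in osteoarthritis and 13650 and 43346 in control. In such bulk samples fewer cells of a type and less RNA per cell cannot be told apart, and the part of these tissues in the results below was not tested.

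The promoters of Gapdh, Slc2a1, Ldha and Hk2 are shown because the windows of the first 3 hold the most matches to the motif described here among the members, while Hk2 is the member that lay above the controls in both osteoarthritis libraries. Each runs 5′ to 3′ over 300 bases, 250 before to 50 after a transcription start, from RefSeq on rat assembly GRCr8. Capitals mark ACGTG and GCGTG, read on both strands (as CACGT and CACGC on the printed strand), the core letters bound by hypoxia-inducible factors.
Gapdh (chr4:159652418-159652717, minus strand): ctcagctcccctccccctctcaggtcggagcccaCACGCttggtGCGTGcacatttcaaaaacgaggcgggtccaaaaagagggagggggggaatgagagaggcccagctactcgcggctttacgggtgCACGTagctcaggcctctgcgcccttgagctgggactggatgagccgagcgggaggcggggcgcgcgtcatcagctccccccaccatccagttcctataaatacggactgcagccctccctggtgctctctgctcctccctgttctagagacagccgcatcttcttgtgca
Slc2a1 (chr5:138002272-138002571, plus strand): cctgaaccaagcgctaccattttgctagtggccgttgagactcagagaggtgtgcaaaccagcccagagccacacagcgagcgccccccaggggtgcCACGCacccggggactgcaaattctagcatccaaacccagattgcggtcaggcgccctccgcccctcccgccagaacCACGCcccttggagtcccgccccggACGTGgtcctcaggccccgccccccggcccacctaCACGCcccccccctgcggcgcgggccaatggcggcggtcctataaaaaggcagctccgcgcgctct
Ldha (chr1:106507842-106508141, plus strand): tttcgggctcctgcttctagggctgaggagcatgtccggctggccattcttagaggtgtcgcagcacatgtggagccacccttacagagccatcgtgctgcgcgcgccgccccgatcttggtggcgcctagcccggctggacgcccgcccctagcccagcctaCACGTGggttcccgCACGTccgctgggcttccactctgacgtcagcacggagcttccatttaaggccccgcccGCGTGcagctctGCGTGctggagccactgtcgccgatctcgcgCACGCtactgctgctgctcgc
Hk2 (chr4:116841226-116841525, minus strand): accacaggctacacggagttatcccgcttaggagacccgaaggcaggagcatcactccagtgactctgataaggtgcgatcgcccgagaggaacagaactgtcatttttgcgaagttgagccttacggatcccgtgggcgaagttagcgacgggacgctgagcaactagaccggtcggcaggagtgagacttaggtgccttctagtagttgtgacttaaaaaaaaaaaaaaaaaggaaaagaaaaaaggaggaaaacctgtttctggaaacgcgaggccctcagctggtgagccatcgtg

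The table of promoters held 9 of the 10 members, all but Pgk1. The Ldha window had 6 matches, of which a pair overlap in CACGTG, the Slc2a1 window 4, the Gapdh window 3 and the Hk2 window 0. Over all listed starts, 7 of the 9 genes had at least 1 match and Hk2 and Tpi1 had 0, beside 44.6% of the 27457 genes in that table. Hk1, Aldoa and Eno1 have more than 1 listed start, and with the first listed start alone the counts were 5 of 9 and 42.9%. G and C made up 66.7% of the Ldha window, 68.3% of Slc2a1, 62.3% of Gapdh and 51.0% of Hk2. The median over all genes was 52.3%, and the shares of genes with a match were not adjusted for this content. A match of these letters is no measured binding site, and windows without a match say nothing of the factor.

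No member passed the test of osteoarthritis against control. With Benjamini-Hochberg adjustment over all 15282 genes, the quasi-likelihood test of edgeR called 0 members higher and 0 lower, as it did for 0.00% of all genes in each direction. Hk2 stood nearest to the threshold, with an adjusted p of 0.0964. At an unadjusted p under 0.05 there was 1 member higher, Hk2, and 0 lower, beside 12.2% and 11.2% of all tested genes. DESeq2 called 1 member higher, again Hk2, and 0 lower, beside 7.24% and 8.26% of all genes. For 1 member, Hk2, the osteoarthritis libraries were both higher than either control, and for 3 they were both lower, Hk1, Pfkp and Aldoa, beside 30.0% and 26.5% of all genes. For the other 6 the groups overlapped. The median fitted log2 fold change of the 10 was -0.24, beside 0.15 over all tested genes.

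**Figure D1:**
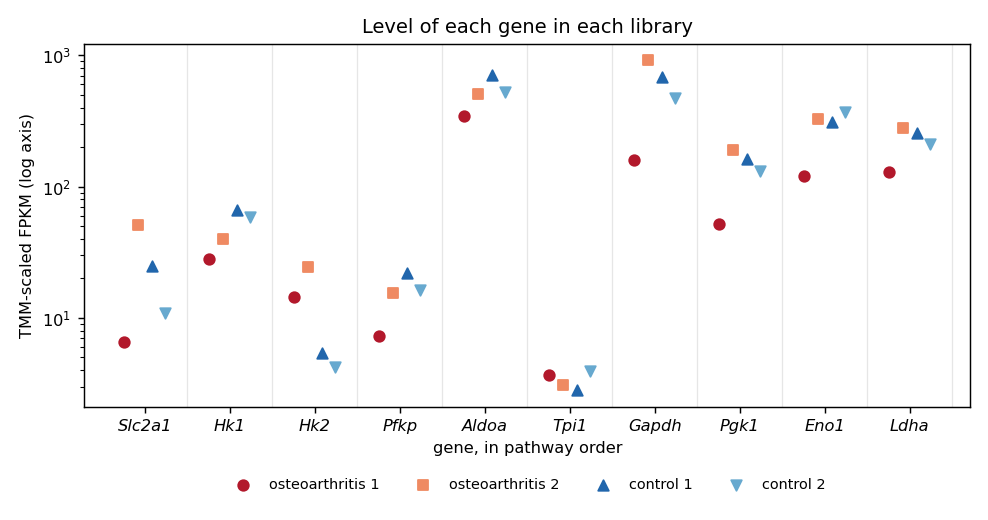
FPKM scaled with TMM factors (fragments by gene length and library size, log axis) of the 10 genes in the order of the pathway, with a point for each library, osteoarthritis libraries left of control libraries. Hk2 is the gene whose osteoarthritis points both lie above both controls, and in 8 of the 10 genes osteoarthritis replicate 1 lies below both controls.

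Slc2a1, a widely expressed basal glucose transporter, was at 16.9 and 132 CPM in the osteoarthritis libraries and at 64.2 and 27.96 CPM in the control libraries. The osteoarthritis libraries lay on either side of the controls, 7.85-fold apart, and the controls were 2.30-fold apart, so the fitted log2 fold change of 0.69 ± 0.97 (SE) was smaller than its error (edgeR adjusted p = 0.721). Without osteoarthritis replicate 2 it was -1.44 (adjusted p = 0.0827). Without osteoarthritis replicate 1 it was 1.51 and passed the test (adjusted p = 0.0420), as 8.16% of genes did upward and 6.95% downward in that fit. Those called there were 2 members higher, Slc2a1 and Hk2, and 0 lower.

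Hk2, the insulin- and hypoxia-responsive hexokinase of muscle and fat, was at 68.3 and 116 CPM in the osteoarthritis libraries and at 25.8 and 20.1 CPM in the control libraries. Both osteoarthritis values lay above both controls, with means of 92.1 ± 33.7 and 22.99 ± 4.03 CPM (SD, n = 2 each). The fitted log2 fold change was 2.00 ± 0.40, a 4.01-fold higher level, which did not pass edgeR's quasi-likelihood test (adjusted p = 0.0964) and did pass DESeq2 (adjusted p = 0.000773). It was also called by edgeR's likelihood ratio test (adjusted p = 0.00406), beside 6.31% of genes higher and 6.40% lower by that test, and in the quasi-likelihood fit without a filter on low counts (0.0102). Without osteoarthritis replicate 1 the log2 fold change was 2.31 (adjusted p = 0.00184) and without replicate 2 it was 1.58 (adjusted p = 0.0131). The adipocyte markers that differ between those libraries are given above, and their part in the Hk2 values was not tested. Without control replicate 1 or 2 it was not called (adjusted p = 0.300 and 0.348).

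Hk1, the ubiquitous hexokinase, was at 91.9 and 130 CPM in osteoarthritis and at 218 and 192 CPM in control. Both osteoarthritis values lay below both controls, with a log2 fold change of -0.88 ± 0.36 and an adjusted p of 0.225 in edgeR and 0.111 in DESeq2. Hk1 is also the hexokinase of red cells, whose markers were lower in the same libraries as given above. Their part in the Hk1 values was not tested.

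The mix of hexokinases is a ratio within a library and so does not depend on how libraries are scaled to each other. As a share of the summed FPKM of the hexokinase genes, Hk2 made up 32.9% and 36.0% in the osteoarthritis libraries and 6.77% and 5.95% in the control libraries. Hk1 made up 64.7% and 59.2% in osteoarthritis and 83.5% and 82.7% in control. The groups did not overlap for either, and the difference was wider than the spread within each group (Hk2 share 34.5 ± 2.20% and 6.36 ± 0.583%, SD, n = 2 each). No exact permutation test was run, since 2 libraries against 2 allow no two-sided p under 0.333. The ratio of Hk2 to Hk1 per length was 0.509 and 0.609 in osteoarthritis and 0.0811 and 0.0719 in control. Hk3, a hexokinase of myeloid cells, made up 2.34% and 4.67% in osteoarthritis and 9.70% and 11.3% in control. Mpo, a defining neutrophil gene, was at 42.8 and 63.2 CPM in osteoarthritis and 645 and 1019 CPM in control. The part of neutrophils in the Hk3 share was not tested.

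**Figure D2:**
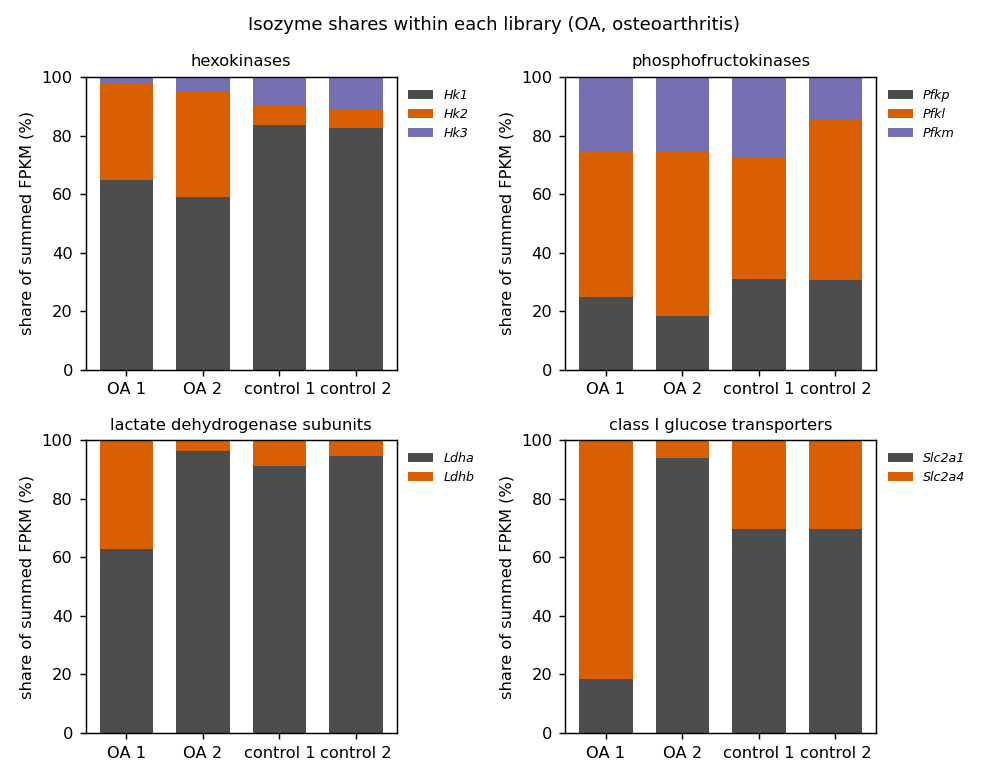
Share of each gene (%) in the summed FPKM of its family, as a stacked bar for each library, osteoarthritis (OA) left of control, leaving out genes with a share under 0.5% in all 4 libraries. Hk2 takes 32.9% and 36.0% of the hexokinases in osteoarthritis and 6.77% and 5.95% in control, while the Ldha and Slc2a1 shares split the osteoarthritis libraries.

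Pfkp, the platelet-type phosphofructokinase, was at 19.7 and 41.9 CPM in osteoarthritis and at 58.6 and 44.1 CPM in control. Both osteoarthritis values lay below both controls, the nearer by a small gap, and the log2 fold change of -0.74 ± 0.46 did not pass (adjusted p = 0.392). Its share of phosphofructokinase FPKM was 24.9% and 18.4% in osteoarthritis and 31.1% and 30.7% in control. Pfkl, the liver-type enzyme, held 49.8% and 56.1% in osteoarthritis and 41.3% and 54.7% in control, so its groups overlapped.

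Aldoa, the aldolase of muscle and most other tissues, was at 521 and 761 CPM in osteoarthritis and at 1071 and 798 CPM in control. All of osteoarthritis lay below all of control, but osteoarthritis replicate 2 and control replicate 2 were close, and the log2 fold change of -0.54 ± 0.46 did not pass (adjusted p = 0.533). Aldoa made up 96.8% to 99.6% of aldolase FPKM in the 4 libraries. Without control replicate 1, the library with the most muscle markers, its log2 fold change was -0.37, and without control replicate 2 it was -0.73. Without osteoarthritis replicate 1 it was -0.32, and without osteoarthritis replicate 2 it was -0.83. The part of muscle in the Aldoa values was not tested.

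Tpi1, which interconverts the triose phosphates, had 158 and 104 counts in osteoarthritis and 116 and 148 counts in control. That is 5.36 and 4.49 CPM against 4.08 and 5.68 CPM, overlapping groups with a log2 fold change of 0.01 ± 0.69 (adjusted p = 0.993). Per length it was at 2.82 to 3.92 TMM-scaled FPKM in the 4 libraries, the lowest of the 10 genes, whereas its pathway neighbours Aldoa and Gapdh were at 158 to 914. Rodent genomes carry processed copies of several glycolytic genes, Gapdh above all, and how reads with several matches were counted is not given in the sources used here. The levels of Tpi1 and of the other members are uncertain to that extent, and the part of such copies in them was not tested.

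Gapdh, whose enzyme is the target of iodoacetate, was at 229 and 1325 CPM in osteoarthritis and at 991 and 684 CPM in control. Osteoarthritis replicate 1 lay below both controls and replicate 2 above both, 5.78-fold apart, and the controls were 1.45-fold apart. The fitted log2 fold change was -0.11 ± 0.86 (adjusted p = 0.959), so these libraries show no common direction for the transcript and do not exclude a change of either sign. Without osteoarthritis replicate 2 it was -1.86 and passed the test (adjusted p = 0.0114), as 5.73% of genes did downward and 4.88% upward in that fit. Without replicate 1 it was 0.64 (adjusted p = 0.395).

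Pgk1, which makes the first ATP of the pathway, was at 85.6 and 317 CPM in osteoarthritis and at 272 and 218 CPM in control. It had the Gapdh pattern, with osteoarthritis replicate 1 below and replicate 2 above both controls, and a log2 fold change of -0.28 ± 0.66 (adjusted p = 0.846). Eno1, the ubiquitous enolase, was at 209.7 and 574 CPM in osteoarthritis and at 547 and 649.6 CPM in control. Here osteoarthritis replicate 2 lay between the controls, and the log2 fold change was -0.61 ± 0.59 (adjusted p = 0.582). Without osteoarthritis replicate 2, both passed the test as lower (Pgk1 at -1.50, adjusted p = 0.0329, and Eno1 at -1.50, adjusted p = 0.0340).

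Ldha, the lactate dehydrogenase subunit that favours lactate, was at 218 and 469.6 CPM in osteoarthritis and at 428 and 355 CPM in control. Again osteoarthritis replicate 1 was the lowest and replicate 2 the highest, with a log2 fold change of -0.19 ± 0.50 (adjusted p = 0.867). Ldhb, the subunit of heart and other oxidative tissues, was at 103.5 and 14.1 CPM in osteoarthritis and at 32.98 and 16.4 CPM in control. Ldha thus held 62.9% of the FPKM of both genes in osteoarthritis replicate 1 and 96.4% in replicate 2, against 91.3% and 94.6% in control. The library with the low Ldha share is the library with the most adipocyte markers, whose part in that share was not tested. In the same way Slc2a1 held 18.5% and 93.9% of class I glucose transporter FPKM in osteoarthritis and 69.9% and 69.6% in control, the rest being almost all Slc2a4, the insulin-regulated transporter of fat and muscle, at 72.75 and 8.38 CPM in osteoarthritis and 27.1 and 11.9 CPM in control.

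**Figure D3:**
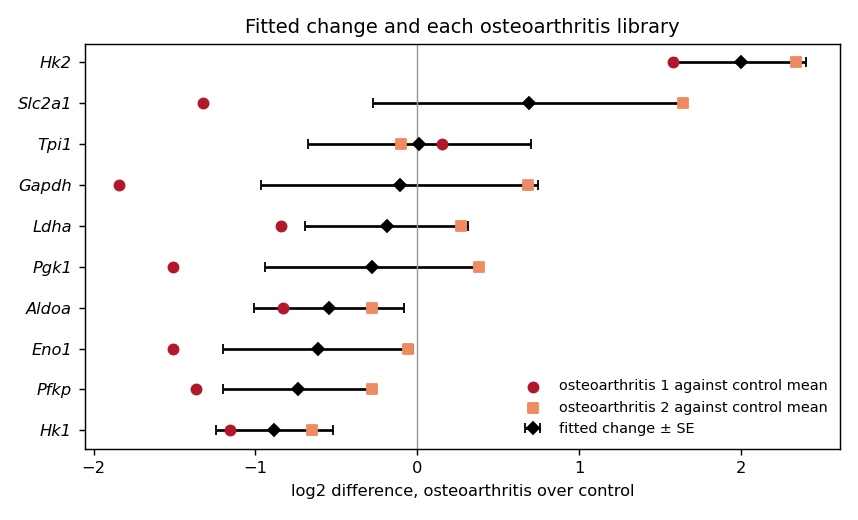
Fitted log2 fold change of osteoarthritis over control with its SE (black) and the log2 difference of each osteoarthritis library from the mean of both controls (coloured). Hk2 is positive and Hk1, Pfkp, Aldoa and Eno1 are negative in both libraries (Eno1 at -0.06 in replicate 2), while Slc2a1, Tpi1, Gapdh, Pgk1 and Ldha have the 2 libraries on opposite sides of 0.

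Ordered by TMM-scaled FPKM, the means in osteoarthritis ran Gapdh 536, Aldoa 426, Eno1 223, Ldha 204, Pgk1 121, Hk1 34.1, Slc2a1 28.99, Hk2 19.4, Pfkp 11.5 and Tpi1 3.40. In control they ran Aldoa 621, Gapdh 578, Eno1 341, Ldha 233, Pgk1 148, Hk1 62.9, Pfkp 19.1, Slc2a1 17.9, Hk2 4.83 and Tpi1 3.37. In control, neighbours in this order had separate ranges except Aldoa with Gapdh and Pfkp with Slc2a1. In osteoarthritis, ranges of neighbours overlapped except between Aldoa and Eno1, Pgk1 and Hk1, and Pfkp and Tpi1. Hk2 was thus below Pfkp and Slc2a1 in both controls and above Pfkp in both osteoarthritis libraries. Aldoa, Gapdh, Pgk1, Eno1 and Ldha were the more abundant transcripts in both groups, and the transporter, the hexokinases, Pfkp and Tpi1 the less abundant.

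All members but Tpi1 differed more between the osteoarthritis libraries than between the controls, and the share over all genes was not counted. Of the 10, 9 were higher in osteoarthritis replicate 2 than in replicate 1, Tpi1 being the exception, beside 53.3% of all genes compared. Subtracting replicate 1 from replicate 2, the members' median log2 difference was 1.10, beside 0.07 over all genes. The widest differences were those of Slc2a1 (2.97), Gapdh (2.53), Pgk1 (1.89) and Eno1 (1.45), and the narrowest positive ones those of Hk1 (0.51) and Aldoa (0.55). In osteoarthritis replicate 1, 8 of the 10 lay below both controls, beside 35.7% of tested genes. In osteoarthritis replicate 2, 5 lay above both controls, Gapdh, Hk2, Pgk1, Ldha and Slc2a1, beside 42.8% of tested genes. Between the controls the corresponding median was -0.34, beside 0.0003 over all genes. There 8 of 10 were lower in replicate 2, and the share over all genes was not counted. The osteoarthritis libraries also differed in adipocyte markers (8691 and 116 summed CPM) and in tendon and fibroblast markers (33343 and 146633). Of the 10 chondrocyte markers, 7 were higher in osteoarthritis replicate 2 than in replicate 1, and Col2a1, Col9a1 and Ucma were lower. Hif1a, the oxygen-regulated transcription factor of hypoxia, was at 100.8 and 531 CPM in osteoarthritis, against 96.8 and 56.8 CPM in control. What part these differences have in the split was not tested.

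**Figure D4:**
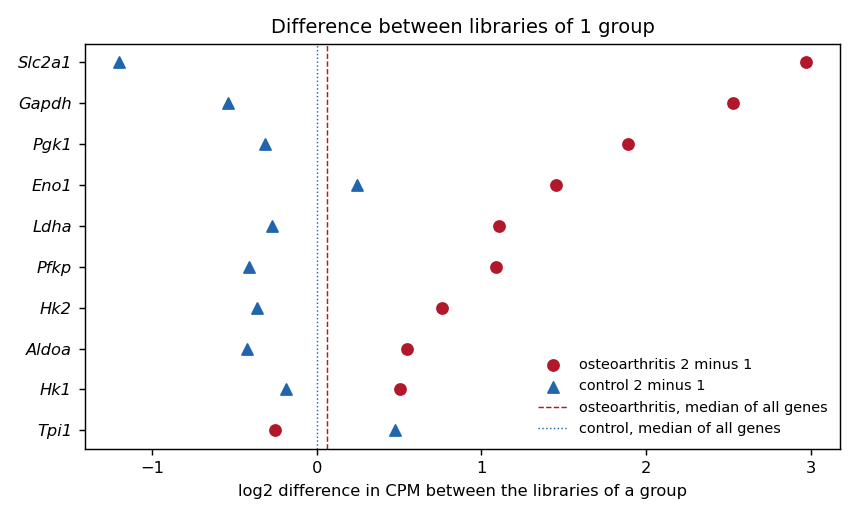
Log2 difference in CPM between the libraries of a group, replicate 2 minus replicate 1, for osteoarthritis (circles) and control (triangles), with the median over all tested genes as lines. The osteoarthritis differences reach 2.97 for Slc2a1 and 2.53 for Gapdh, against -1.20 and -0.54 between the controls.

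The genes whose levels over the 4 libraries were most like those of Gapdh were sought among 11361 tested genes with a mean of at least 5 CPM, by the root mean square difference of centred log2 CPM. Among the 6 nearest were Socs1, a feedback inhibitor of cytokine signalling (0.071), Slc7a1, a transporter of basic amino acids (0.10), Mcub, a subunit of the mitochondrial calcium uniporter (0.11), Fibin (0.13) and LOC100364062 (0.13). Of the members, Pgk1 was nearest at rank 14 (0.24), followed by Slc2a1 at rank 107 (0.46) and Eno1 at rank 123 (0.48). Hk2 was far from Gapdh, at rank 9132 (1.42). With 4 libraries, many genes can share such a profile.

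Gapdh is often the denominator of quantitative PCR. Of 15 other genes used in that role, 12 were higher relative to Gapdh than in both controls in osteoarthritis replicate 1. In osteoarthritis replicate 2, 11 were lower than in both controls, by ratios of counts. Gapdh itself was at 229 CPM in replicate 1 and 1325 CPM in replicate 2, against 991 and 684 CPM in control. Such ratios move with their denominator, so these counts restate the Gapdh split and say little of the other genes. The share over all genes was not counted. The ratio of Actb, beta actin, to Gapdh was above both controls in both libraries, by 2.42 and 0.49 on the log2 scale against the control mean. That of Tfrc, the transferrin receptor for iron uptake, which erythroid cells use heavily, was below both controls in both. Relative to Gapdh, Hk2 was higher by 3.43 and 1.66 and Slc2a1 by 0.51 and 0.96 in osteoarthritis replicates 1 and 2. Those 2 were the members whose groups did not overlap in this ratio, and the share over all genes was not counted. In CPM, Slc2a1 in osteoarthritis replicate 1 was below both controls (16.9 against 64.2 and 27.96). Against the control mean, Slc2a1 was at -1.33 and Gapdh at -1.84 on the log2 scale in that library. Among the 16 genes of this list, those with the smallest fitted log2 change were Sdha (-0.04), B2m (-0.10), Gapdh itself (-0.11) and Pgk1 (-0.28). A small fitted change did not mean a steady level: B2m was at 2194 and 562 CPM in osteoarthritis and at 1716 and 1233 CPM in control.

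**Figure D5:**
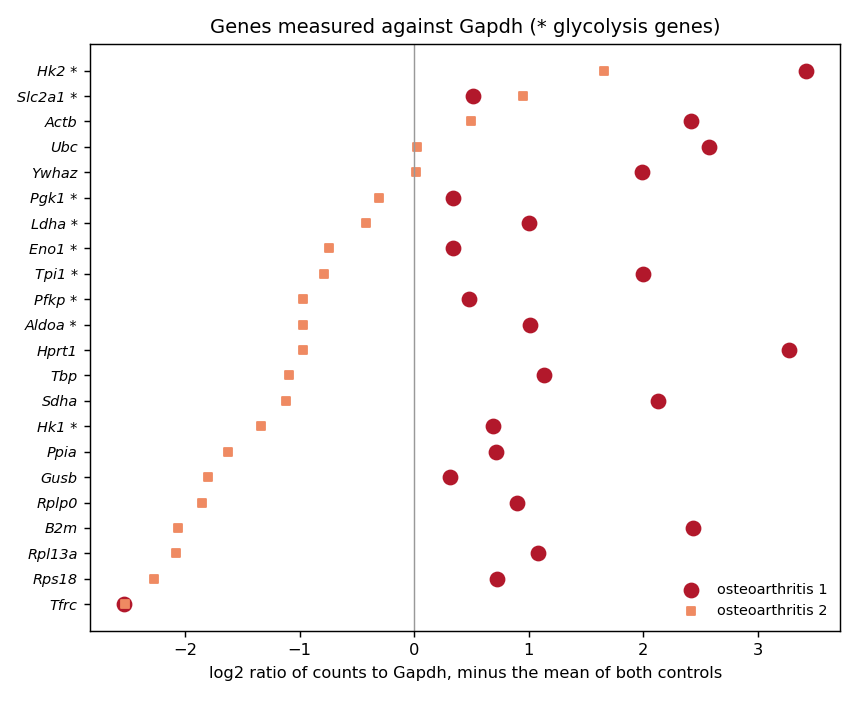
Log2 ratio of the counts of the glycolysis genes and of reference genes to those of Gapdh, minus the mean ratio of both controls, in each osteoarthritis library. Most points of osteoarthritis replicate 1 lie above 0 and most of replicate 2 below 0. Gapdh, the denominator, was itself below both controls in replicate 1 and above both in replicate 2. Hk2, Slc2a1 and Actb are clearly above 0 in both, with Hk2 at 3.43 and 1.66.

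Among the other genes of glucose metabolism, 102 were tested that are no members, hypoxia-induced genes included, and edgeR's quasi-likelihood test called 0 of them in either direction. DESeq2 called 4 higher and 11 lower, beside 7.24% and 8.26% of all genes. Of 16 other glycolytic enzymes tested, 6 lay below both controls and 0 above both, beside 26.5% and 30.0% of all genes. Their median log2 fold change was -1.04, and DESeq2 called 4 lower, beside 8.26% of all genes. Those 4 were Pklr, Bpgm, Ldhc and Hk3, and the part of blood cells in their values was not tested. Pklr, the pyruvate kinase of red cells and liver, was at 0.611 and 1.56 CPM in osteoarthritis and at 18.7 and 37.4 CPM in control (log2 fold change -4.70 ± 0.74, edgeR adjusted p = 0.0835). Bpgm, which makes the 2,3-bisphosphoglycerate of red cells, was at 33.8 and 91.3 CPM in osteoarthritis and at 369 and 362 CPM in control (-2.55 ± 0.58, edgeR adjusted p = 0.109). The others were Ldhc of testis (-2.81 ± 0.88) and Hk3 (-1.92 ± 0.64). The widely expressed Pkm had the pattern of Gapdh, with 238.5 and 922 CPM in osteoarthritis and 819 and 634 CPM in control (log2 fold change -0.32 ± 0.71, adjusted p = 0.834). The muscle isozymes Pgam2 and Eno3 were high in control replicate 1, with Pgam2 at 4.07 and 4.71 CPM in osteoarthritis and at 59.5 and 2.88 CPM in control. The muscle genes Acta1 and Ckm were likewise highest in control replicate 1, with Ckm at 16.8 and 36.8 CPM in osteoarthritis and at 444 and 14.5 CPM in control. The part of muscle in the Pgam2 and Eno3 values was not tested.

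Of 10 sugar and lactate transport genes tested, 2 lay above both controls and 3 below, beside 30.0% and 26.5% of all genes. DESeq2 called 1 in each direction, beside 7.24% of all genes higher and 8.26% lower. Slc2a12, a glucose transporter, was at 16.1 and 72.6 CPM in osteoarthritis and at 2.53 and 3.91 CPM in control (log2 fold change 3.78 ± 0.83, edgeR adjusted p = 0.108, DESeq2 adjusted p = 0.000137). Slc16a1, a lactate transporter, was at 45.6 and 59.5 CPM in osteoarthritis and at 120.1 and 122 CPM in control (-1.21 ± 0.32, edgeR adjusted p = 0.130). Slc2a6 and Slc2a10 had log2 fold changes of -1.09 and 1.72. Of 17 regulators of glycolysis and pyruvate entry into mitochondria, 6 lay above both controls and 2 below, beside 30.0% and 26.5% of all genes. DESeq2 called 0 of them. Pfkfb3, which makes the activator of phosphofructokinase, was at 352 and 186 CPM in osteoarthritis and at 132 and 36.2 CPM in control (1.68 ± 0.72, edgeR adjusted p = 0.239). Pdk1, which shuts pyruvate out of the citric acid cycle, was at 46.4 and 52.2 CPM in osteoarthritis and at 30.2 and 22.8 CPM in control (0.89 ± 0.33, adjusted p = 0.193). Pdp1, the opposing phosphatase, was likewise above both controls (1.30 ± 0.40, adjusted p = 0.158), and Mpc2 of the pyruvate carrier below both (-0.71 ± 0.32).

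The pentose phosphate pathway branches off after hexokinase and makes NADPH and ribose. Of its 8 tested genes, 6 lay below both controls and 1 above, beside 26.5% and 30.0% of all genes. Their median was -1.24, and DESeq2 called 4 lower and 0 higher, beside 8.26% and 7.24% of all genes. Rpia, ribose 5-phosphate isomerase, was at 27.1 and 22.6 CPM in osteoarthritis and at 84.4 and 98.6 CPM in control (-1.88 ± 0.32, edgeR adjusted p = 0.0835). Taldo1, transaldolase, was at 98.2 and 90.1 CPM in osteoarthritis and at 278 and 273 CPM in control (-1.55 ± 0.34, adjusted p = 0.106), and Pgls and Pgd were at -1.72 and -1.57. Between the osteoarthritis libraries, replicate 2 minus replicate 1, the 8 genes differed by -0.50 (Tkt) to 0.57 (H6pd) on the log2 scale. The neutrophil and erythroid markers were below both controls in both libraries and their part was not tested.

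Of 15 hypoxia-induced genes outside glycolysis, hypoxia-inducible factor subunits included, 7 lay above both controls and 2 below, beside 30.0% and 26.5% of all genes. Their median was 0.90, and DESeq2 called 2 higher, beside 7.24% of all genes. Epas1, an oxygen-regulated factor also marking blood vessels, was at 177 and 198 CPM in osteoarthritis and at 82.6 and 43.0 CPM in control (1.57 ± 0.43, edgeR adjusted p = 0.135). Bnip3, a mitophagy receptor, was at 141 and 165 CPM in osteoarthritis and at 78.5 and 47.7 CPM in control (1.28 ± 0.38, adjusted p = 0.153). Adm was at 1.39 and Egln3, a prolyl hydroxylase, at -2.05. The summed CPM of 8 endothelial markers was 1266 and 870.1 in osteoarthritis and 837 and 399 in control, and their part in the Epas1 values was not tested. Of the 15, 14 were higher in osteoarthritis replicate 2 than in replicate 1, as were 9 of the 10 glycolysis genes. Over all genes compared, 53.3% were.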

How the data were processed

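Per the labels' protocols, TRIzol-extracted, column-purified total RNA of cartilage was made into polyA libraries. The submitters' processing notes name fastp and TopHat, and the build hg38, a human build, although the symbols are of rat; the sources used here do not give the counting tool, annotation or strandedness. The authors deposited raw read counts per gene and FPKM values. All 67506 FPKM values above 0 equalled the deposited count over a gene length and the column total (largest relative deviation 3e-14), so both tables are 1 measurement. Counts were fitted whole in edgeR 4.0.16 (R 4.3.3): filterByExpr, TMM, quasi-likelihood F test, two-sided, Benjamini-Hochberg adjustment over 15282 genes, threshold 0.05. SE is the log2 fold change over the root of F. DESeq2 1.42.0, limma 3.58.1, other scalings and filters and fits without each library were alternatives, and the fits were tested on simulated data. FPKM served for levels between genes and isozyme shares. Groups follow the disease state label. The labels name no molecular identifiers. The members, lists and tests were chosen with earlier results of these data known. Named genes were all members, up to 4 genes per list with the smallest unadjusted p, the 4 reference genes of smallest change, the 6 most like Gapdh, genes whose isozyme share is described and the defining genes of marker lists. Slc16a3, Pkm, Actb, Tfrc, Hif1a, Sox9, Col11a1, Col9a1, Ucma, Tkt, H6pd, Pgam2, Eno3 and Pck1 were added after their values were seen. Names and promoters are from RefSeq GRCr8. A few genes that the rule names are not reported here. Figures were drawn with matplotlib 3.10.9.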

Additional observations from a re-analysis of the deposited data

How the results depend on the processing

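No paired analysis was possible because the labels name no pairing of osteoarthritis with control libraries. Across 15 alternatives per member, Hk1, Pfkp and Aldoa kept a negative and Hk2 a positive log2 fold change, Hk2 between 1.58 and 2.31, and Hk1, Pfkp, Aldoa, Tpi1 and Ldha were never called. Counts of members called higher were 1 with DESeq2, 1 with no filter and 1 with the likelihood ratio test, and 0 to 2 when a library was left out. Counts called lower were 0 to 3 when a library was left out, the 3 being Gapdh, Pgk1 and Eno1 without osteoarthritis replicate 2. Over all tested genes, DESeq2 called 7.24% higher and 8.26% lower, and the likelihood ratio test 6.31% and 6.40%. The all-gene shares for the fits without an osteoarthritis library are given above. Those with no filter or without a control were not counted. Of the 102 other pathway genes tested, DESeq2 called 4 higher and 11 lower, and the likelihood ratio test 3 and 7. With no filter, 105 of these genes were tested, and 3 and 5 were called. Leaving out a library gave 0 to 10 higher and 0 to 14 lower, and leaving out either control gave 0. The members' median was -1.26 to 0.067 without a library, lowest without osteoarthritis replicate 2. Without a library, Gapdh ranged from -1.86 to 0.64, Tpi1 from -0.26 to 0.28, Pgk1 from -1.50 to 0.35, Ldha from -0.84 to 0.23 and Slc2a1 from -1.44 to 1.51, each changing sign. Tpi1, close to 0, was also negative with DESeq2 (-0.0025), relative log expression factors (-0.0030), upper quartile factors (-0.082), library sizes without globin genes (-0.023) and a minimum of 10 counts in every library (-0.060). Eno1 also lay below both controls with upper quartile factors, library size alone and library sizes without globin genes, which makes 4 members. Over all tested genes, 29.1%, 22.5% and 27.1% lay below both controls with those scalings. The median of all genes was 0.15 with TMM, 0.27 with library size alone and 0.05 with upper quartile factors. As shares of raw counts in place of FPKM, in osteoarthritis and control, Hk2 was 43.4% and 9.02% and Hk1 53.5% and 80.8% of hexokinases, and in control Pfkp was 30.4% of phosphofructokinases and Slc2a1 70.1% of class I transporters, a change that follows from leaving out gene length. Fits without a library take the spread of the remaining sample from the group that still has both. The 2 libraries a group limit the precision, while the members other than Tpi1 had at least 497 counts in every library. The part of tissue composition was not tested.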

Other observations

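Of 5 gluconeogenic genes that could be compared between the osteoarthritis libraries, 1 was higher in replicate 2 than in replicate 1. Of 10 glycogen genes 7 were, beside 53.3% of all genes compared. Pck1, the entry enzyme of gluconeogenesis and of glyceride synthesis in fat, was at 490.5 and 0.0432 CPM in osteoarthritis and at 121 and 13.2 CPM in control. Pc, pyruvate carboxylase, was at 134 and 21.3 CPM in osteoarthritis and at 37.9 and 35.2 CPM in control. The adipocyte markers of the same libraries had summed CPM of 8691 and 116 in osteoarthritis and 1611 and 655 in control. Their part in the Pck1 and Pc values was not tested. Of 6 gluconeogenic genes tested, 3 lay below both controls and 0 above, among them Pck2, the mitochondrial form (-1.14 ± 0.31), and the others were G6pc3 (-0.75) and Fbp2 (-3.67). Of 11 glycogen genes, 3 lay above both controls and 2 below, and DESeq2 called 1, Pygm, the phosphorylase of muscle, at 17.2 and 10.98 CPM in osteoarthritis and at 161 and 21.4 CPM in control, the higher control being the library with the most muscle markers. The part of muscle in the Pygm values was not tested. Pgm2, Pygb and Gys1 had log2 fold changes of 0.77, 0.80 and 0.90. Of 19 citric acid cycle genes, 3 lay above both controls and 4 below, with a median of -0.04. Beside this list and the gluconeogenic and glycogen lists, 30.0% of all genes lay above both controls and 26.5% below. DESeq2 called 7.24% of all genes higher and 8.26% lower. Ogdh, a subunit of the oxoglutarate dehydrogenase complex, was at 29.7 and 69.6 CPM in osteoarthritis and at 11.9 and 16.03 CPM in control (1.83 ± 0.51, edgeR adjusted p = 0.139, DESeq2 adjusted p = 0.0258). Aco1 was at 1.10, Mdh2 at -0.79 and Sdhd at -0.98. Slc16a3, the lactate exporter induced by hypoxia, followed the glycolysis genes, with 4.44 and 63.5 CPM in osteoarthritis and 67.1 and 49.7 CPM in control.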
